A study of Mus musculus with 6 samples.

Results

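The nuclear-encoded subunits of mitochondrial complex I were followed as 35 listed Nduf genes, all of which were present among the 18792 genes of a scRNA-seq table of 13614 cells from mouse spinal cord. The cells came from 6 libraries, 2 of them from healthy controls (1 WT and 1 Nd6) and 4 from mice with experimental autoimmune encephalomyelitis (EAE) induced with MOG (2 WT and 2 Nd6). Nd6 mice carry a point mutation in a mitochondrially encoded complex I subunit, which per the study blocks reverse electron transport while forward electron transport is kept. Per the study's methods EAE was induced in adult female mice that were sampled about a month after immunization, and healthy controls were of both sexes. Per the labels, all tissue was dissociated after perfusion with transcription inhibitors and depleted of myelin. The study's methods name spinal cords for these cells, whereas its results speak of the entire CNS. How many mice went into a library is not given in the sources used here.

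Complex I (NADH:ubiquinone oxidoreductase) passes electrons from NADH to ubiquinone in its matrix arm and pumps protons in its membrane arm. Core subunits carry the flavin and the iron-sulfur clusters, the proton channels are encoded in mitochondrial DNA, and accessory subunits surround the core and are needed for assembly and stability. Of the 35 genes, 6 encode core subunits of the matrix arm, 9 accessory subunits of the matrix arm, 9 and 10 accessory subunits of the proximal and distal membrane arm, and 1 the acyl carrier protein Ndufab1, which sits in the complex beside Ndufa6 and Ndufb9. In microglia, the resident macrophages of the spinal cord, complex I is studied for its part in inflammatory activation.

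The names of the cells carry a barcode and 1 of 6 endings that match no library label. The 6 sets of cells that share an ending are called A to F by size (809 to 4633 cells), they serve only to show how far a value varies, and no genotype or disease comparison was made. A set may be a library, and 18 barcodes occurred in 2 sets. The sets may therefore differ in genotype and disease, and the spread between them may hold both. With no link from cells to libraries there are no replicates, so that no test or p-value was computed and no value carries a replicate SD, and any difference below is a difference within 1 pooled table. The deposited values were whole numbers whose totals per cell lay between 687 and 1578, with 138 to 1287 genes above 0, and were treated as a score of unknown depth. Levels are given as the mean over cells of a gene's share of the cell total, times 10000.

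Some of the genes share sequence features around their start sites. Promoter windows of 300 bases (250 before the annotated start, RefSeq, GRCm38.p6) were available for 32 of the 35 genes. The motif of nuclear respiratory factor 1 (NRF1), a regulator of respiratory chain genes, was searched as GCGCANGCG on both strands and was found in 8 of the 32 genes (25%), against 7.03% of all 27025 genes of the promoter table. The YY1 motif AAGATGGCG was found in 5 of the 32 (15.6%), against 1.64% of all genes, and in each of the 5 it began 22 to 35 bases after the start site, on the gene's own strand. The searched letters include ATG, the letters of a start codon. Whether these matches are the start of the coding sequence was not checked, and binding of YY1 was not measured. A match to GABP (ACTTCCGG) was found in 1 gene, Ndufs3 (3.12%, against 4.31%), and the ERR motif TCAAGGTCA in none of the 32 (0.466% of all genes). The following windows, 5′ to 3′ on the gene's strand with the motif in capitals, are shown for genes that carry the results below: Ndufs6, Ndufs5 and Ndufa5 had higher levels in the oligodendrocyte gate, and Ndufc1 was highest in the ependymal gate.
Ndufs6 NRF1, chr13:73328479-73328507, minus strand: gactgctgtgCGCCTGCGCcggcacttgg
Ndufs6 YY1, chr13:73328433-73328459, minus strand: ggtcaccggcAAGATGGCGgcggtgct
Ndufs5 NRF1, chr4:123718266-123718294, minus strand: gctgcttgctGCGCAGGCGcagacccgct
Ndufa5 NRF1, chr6:24527698-24527726, minus strand: tgtgtgagctGCGCAGGCGcaaatctacc
Ndufc1 YY1, chr3:51408915-51408943, minus strand: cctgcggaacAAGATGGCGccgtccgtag
Ndufs6 held both motifs. The median fold in the oligodendrocyte gate over the myeloid gate was 1.33 for the 8 genes with an NRF1 match and 1.43 for 23 genes without one. In the ependymal gate these medians were 2.20 and 1.51, and in proliferating myeloid cells 1.38 and 1.60. For the 5 genes with a YY1 match and 26 without, the medians were 1.45 and 1.34 in oligodendrocytes, 1.35 and 1.84 in ependymal cells and 1.65 and 1.49 in proliferating cells, so that neither motif went with the higher folds in each gate.

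Over all cells the 35 transcripts together made up 49.9 per 10000, or 0.499% of a cell's total. A median of 4 of the 35 genes was above 0 in a cell, and 453 cells (3.33%) had none. The summed level was lowest in set C (40.5) and highest in set B (55.1), with a median of 50.3 over the 6 sets. This spread between sets, which is as wide as many of the differences between cell types, is the scale against which the values below are read.

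Cells were assigned to lineages by counting how many of 10 marker genes per lineage were above 0. The myeloid gate held 10604 cells (77.9%), and its members had a median of 6 of the 10 myeloid markers. The oligodendrocyte gate held 387 cells, the endothelial gate 217, the ependymal gate 91, the astrocyte gate 49, the pericyte or smooth muscle gate 44 and the T or NK gate 43. Own markers had medians of 5 to 7 in these gates, and a median of 1 to 2 myeloid markers was also above 0 in them. B or plasma cells, oligodendrocyte precursors, Schwann cells, neutrophils and fibroblasts had 4 to 9 cells each and were not described further, and no cell passed the neuron gate. Another 2151 cells passed no gate.

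**Figure D1:**
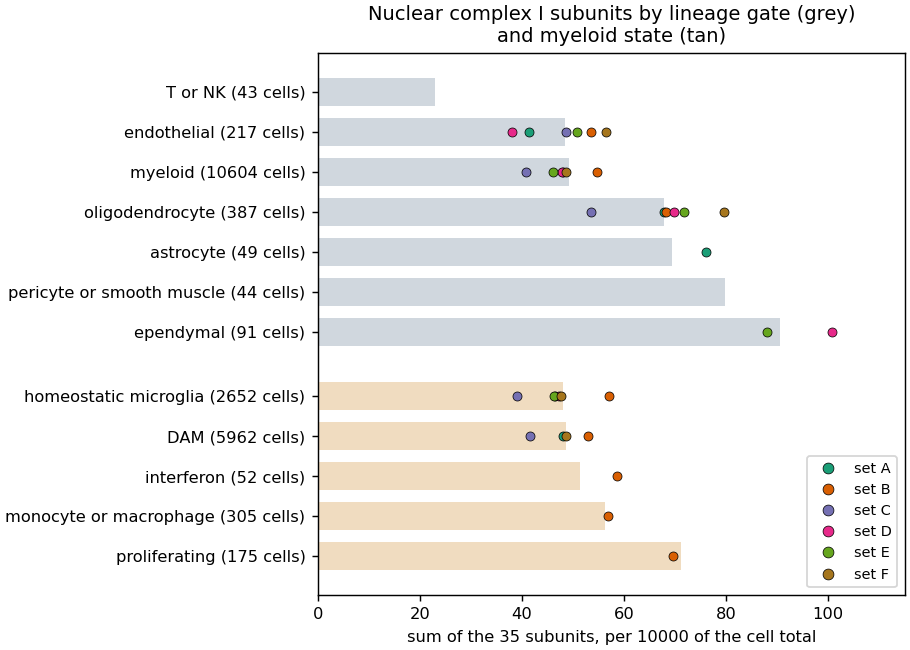
Sum of the 35 nuclear complex I subunits per 10000 of the cell total (x axis) for each lineage gate (grey bars) and myeloid state (tan bars). Bars are means over all cells of a gate and points are means of single sets with at least 20 cells of it. The oligodendrocyte points lie between 53.5 and 79.5, the myeloid points between 40.7 and 54.7, and the 2 ependymal points at 88.0 and 100.8.

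In myeloid cells the summed level was 49.2 per 10000. It was 40.7 in set C, 54.7 in set B and between 46.1 and 48.7 in the other 4 sets. The single genes spread over a wide range, and the 5 highest gave 26.7% of the sum. Ndufa13 (also known as GRIM-19, in the proximal membrane arm) stood at 2.90, Ndufa2 at 2.76, Ndufa6 at 2.57, Ndufa3 at 2.50 and Ndufa7 at 2.42. The lowest were Ndufs1, which carries several of the iron-sulfur clusters, at 0.355, Ndufv1, the NADH-binding flavoprotein, at 0.422, Ndufa9 at 0.540, Ndufb4 at 0.575 and Ndufs3 at 0.709. Among the 6 core genes of the matrix arm, 3 were therefore in the lowest 5, and the 6 together gave 4.81. In a 3′ library the count does not scale with transcript length, except through the intronic reads that the authors included, so that these levels were compared without a length correction.

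Oligodendrocytes, the myelinating cells, had a summed level of 67.8 per 10000, 1.38-fold that of myeloid cells. Set by set the oligodendrocyte level was 67.8 in A, 68.2 in B, 53.5 in C, 69.8 in D, 71.8 in E and 79.5 in F. It was higher than the myeloid level of the same set in 6 of 6 sets, by 1.25- to 1.63-fold (median 1.44). The 2 ranges overlapped only through set C, whose oligodendrocytes (53.5) lay below the myeloid cells of set B (54.7). A 1.24-fold difference remained with a looser gate (591 cells) and the stricter gate (239 cells) gave 1.54-fold. Oligodendrocytes of this table had fewer genes above 0 (median 397, against 564 in myeloid cells), and among cells of 400 to 700 genes only the fold was 1.47.

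Of the 35 genes, 33 reached a mean of 0.5 per 10000 over the oligodendrocyte and myeloid gates. Of these, 11 (33.3%) were at least 1.5-fold higher and 1 (3.03%) at least 1.5-fold lower in oligodendrocytes. Of all genes past the same minimum, 25.7% were higher and 34.4% lower, so that the count of higher genes lay not far above the share of all genes. Largest and smallest folds of single genes, here and in the gates below, are those among genes past this minimum. The median difference of the 33 was 0.50 on the log2 scale, against -0.13 for all such genes. With the looser gate 6 genes were higher.

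The largest difference was that of Ndufs6, a zinc-binding accessory subunit of the matrix arm that joins late in assembly. Its level was 2.61 in oligodendrocytes (lowest set 1.65, median 2.43, highest 4.77) and 1.02 in myeloid cells (0.776, 0.950 and 1.21), 2.56-fold, and no set of one gate overlapped a set of the other. Ndufa3, a small membrane-arm subunit, was at 5.99 (4.08, 5.85 and 10.0) against 2.50 (1.93, 2.64 and 3.08), also without overlap. Ndufs5, on the intermembrane-space side of the membrane arm, was at 2.91 (1.46, 2.89 and 4.89) against 1.28 (1.04, 1.21 and 1.48), which overlapped in set C only. Ndufb2 of the distal arm was at 1.90 (1.44, 1.95 and 2.93) against 0.870 (0.617, 0.802 and 1.17), without overlap. These levels rested on 68 of 387 oligodendrocytes with Ndufs6 above 0, 143 with Ndufa3, 77 with Ndufs5 and 56 with Ndufb2.

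In all, 8 of the 33 genes were higher in oligodendrocytes in each of the 6 sets (18.5% of all genes were): besides these 4, Ndufb11 (1.73-fold), Ndufa5 (1.73), Ndufb7 (1.63) and Ndufa7 (1.55). None of the 33 was lower in each set (25.6% of all genes were). The count of 8 also lay not far above the share of all genes. The 8 belong to the accessory matrix arm and both parts of the membrane arm. None is a core subunit, but the core genes Ndufv1 and Ndufs1 lay under the minimum and could not be counted.

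**Figure D2:**
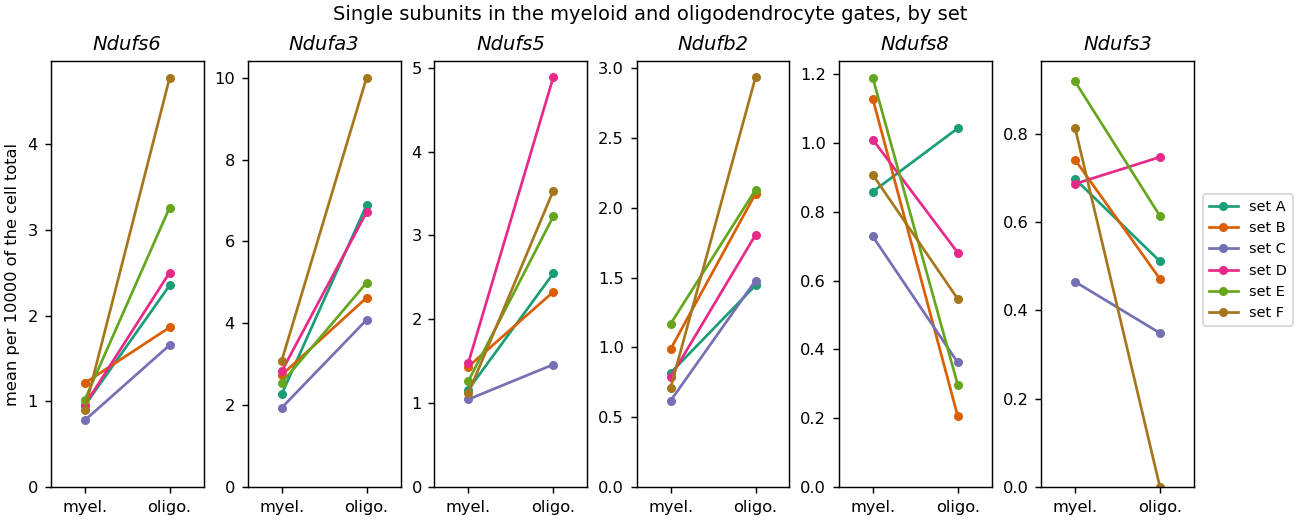
Mean level per 10000 of the cell total (y axis) of 6 subunits in the myeloid and oligodendrocyte gates, with 1 line for each set. Ndufs6, Ndufa3, Ndufs5 and Ndufb2 lie higher in oligodendrocytes in every set, whereas Ndufs8 and Ndufs3, both core subunits, lie lower in 5 of 6 sets.

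The core subunits of the matrix arm did not share the higher level. Their sum was 4.12 in oligodendrocytes and 4.81 in myeloid cells, 0.857-fold, and it was higher in oligodendrocytes in 2 of 6 sets. The accessory genes of the matrix arm (1.38-fold), of the proximal membrane arm (1.43-fold) and of the distal membrane arm (1.49-fold) were each higher in 6 of 6 sets. The lowest single fold past the minimum was that of Ndufs8, which carries iron-sulfur clusters (0.548 against 0.976 per 10000, 0.561-fold, lower in 5 of 6 sets). Next were those of Ndufs3 (0.480 against 0.709), of the accessory Ndufv3 (1.41 against 1.76) and of Ndufa8 (0.888 against 1.08). Under the minimum, the core gene Ndufv1 was at 0.314 against 0.422 (0.744-fold, higher in 2 of 6 sets) and Ndufs1 at 0.464 against 0.355. Core genes have low values, and Ndufs8 was above 0 in 20 oligodendrocytes and Ndufs3 in 17.

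Ependymal cells, the ciliated lining of the central canal, had the highest summed level, 90.6 per 10000 or 1.84-fold the myeloid level. The 2 sets with at least 20 such cells gave 100.8 (D) and 88.0 (E), against 47.9 and 46.1 in their myeloid cells. Of 33 genes past the minimum, 21 were at least 1.5-fold higher and 1 lower, with 51.5% and 24.3% of all genes. The median was 0.83 on the log2 scale against 0.63 for all genes, so that much of the shift was shared by the whole table. Ependymal cells also had the most genes above 0 (median 792). A depth-matched value cannot be given, because fewer than 40 of them had 400 to 700 genes.

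In this gate Ndufc1, a small subunit of the membrane arm, had the highest level of the 35 genes, 4.15-fold that in myeloid cells, and was above 0 in 41 of 91 cells. In set D it was at 9.38 against 1.52 in myeloid cells, and in set E at 7.53 against 1.65. Ndufa12 was at 3.38 (3.91-fold), Ndufab1 at 3.37 (3.60-fold) and Ndufb2 at 2.86 (3.29-fold), each higher in both sets. Ndufc2, which pairs with Ndufc1 in the complex, went the other way, at 1.42 against 2.35 and lower in both sets. The other low folds past the minimum were those of Ndufs8 (0.799), Ndufs4 (0.942) and Ndufv3 (0.979). Under the minimum, Ndufs1 was at 0.175 against 0.355 (0.493-fold). Distal-arm genes together were 2.09-fold and core genes 1.38-fold the myeloid level, the latter higher in set D (1.84-fold) and not in set E (0.943-fold).

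Endothelial cells did not stand apart from myeloid cells in the sum (48.5 against 49.2 per 10000, 0.985-fold). The ratio was above 1 in 3 of 6 sets, from 0.794 to 1.19, and without scaling it was 1.09. Single genes differed: of 33, 4 were at least 1.5-fold higher and 2 lower, fewer than the 43.2% and 22.2% of all genes. Ndufv1 was at 0.885 (lowest set 0.446, median 0.861, highest 1.10) against 0.422 (0.288, 0.334 and 0.549), 2.10-fold and higher in 6 of 6 sets. Ndufb4 (1.55-fold) and the core flavoprotein Ndufv2 (1.51-fold) were higher in 5 of 6 sets and Ndufa7 (3.64 against 2.42) in 6. Ndufa13, the highest gene of myeloid cells, was lower in 6 of 6 sets, at 1.94 against 2.90. In all, 3 genes (Ndufv1, Ndufa7 and Ndufa11) were higher and 1 lower in each set, beside 25.4% and 14.9% of all genes. The remaining low folds past the minimum were those of Ndufb10 (0.660), Ndufs8 (0.663) and Ndufa10 (0.675), and Ndufa9, under it, was at 0.189 against 0.540 (0.350-fold, higher in 0 of 6 sets).

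The 3 smallest gates had 43 to 49 cells, and only their levels are given. T or NK cells had the lowest sum, 23.0 per 10000 or 0.467-fold the myeloid level, although they had a median of 753 genes above 0. The low level was not particular to complex I: the nuclear genes of complexes III, IV and V were at 0.552-, 0.402- and 0.514-fold. Ndufs4, an accessory subunit at the tip of the matrix arm, had the largest fold, at 2.39 against 0.863 (11 of 43 cells). Ndufc2 was at 0.160 and Ndufa6 at 0.318 (1 and 2 cells above 0), and Ndufs3, Ndufa9 and Ndufb4 were listed at 0 in all 43. Pericytes or smooth muscle cells were at 79.8 (1.62-fold), with the largest fold for Ndufb2 (4.12 against 0.870, 11 cells above 0). Astrocytes were at 69.4 (1.41-fold), with the largest fold for Ndufa5 (4.17 against 1.24, 10 cells above 0). Set A, the only one with 20 astrocytes, gave 76.1, and without scaling the astrocyte fold was 1.15. The order from highest to lowest was thus ependymal, pericyte or smooth muscle, astrocyte, oligodendrocyte, myeloid, endothelial and T or NK. Neighbours in this order between pericytes and oligodendrocytes, and myeloid and endothelial cells, differed by less than the spread of the oligodendrocyte and endothelial values over sets.

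**Figure D3:**
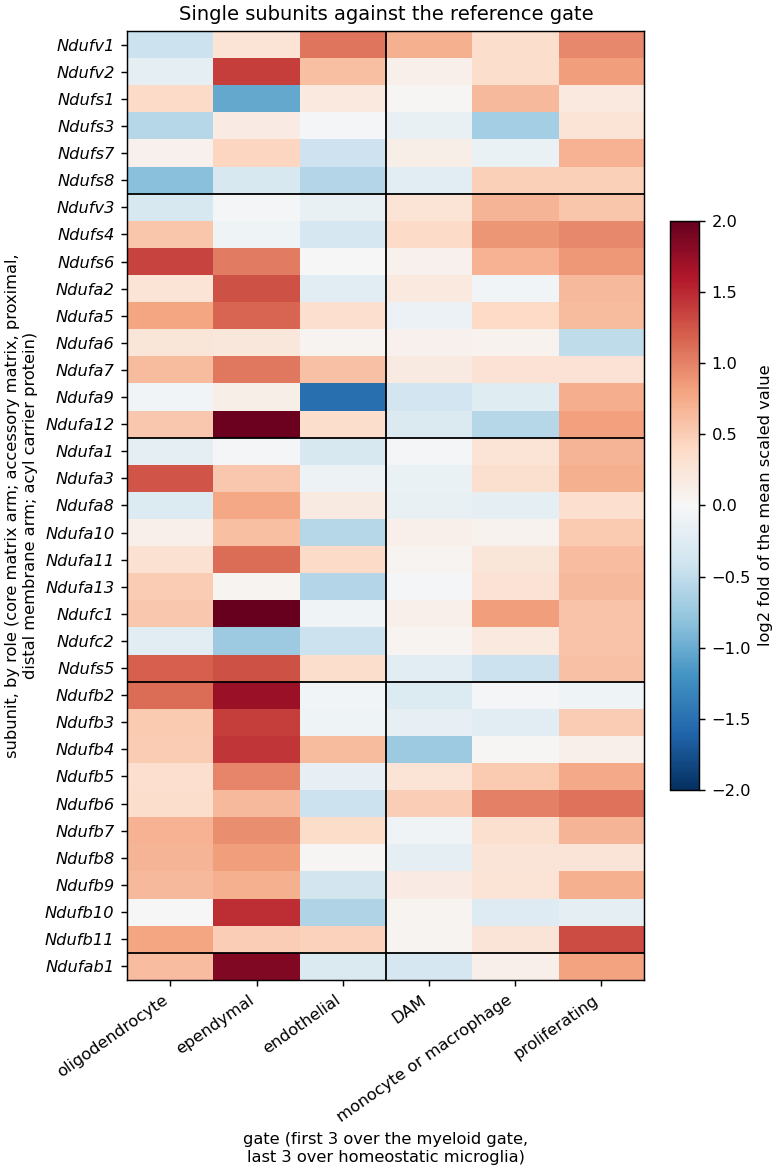
Log2 fold of each of the 35 subunits (rows, grouped by role from core matrix arm at the top to the acyl carrier protein at the bottom) in 6 gates (columns), the first 3 over the myeloid gate and the last 3 over homeostatic microglia. Ependymal cells and proliferating cells are red over most rows, DAM is pale in most rows, and in oligodendrocytes the core rows at the top are paler or blue. Folds are drawn also for genes under the minimum level, such as Ndufa9 in endothelial cells.

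Within the myeloid gate, states were assigned from markers of homeostatic microglia (2652 cells), disease-associated microglia (DAM, 5962), monocytes or macrophages (305), interferon response (52) and proliferation (175). The nuclear subunits did not separate DAM from homeostatic microglia: the sums were 48.6 and 48.1 per 10000, 1.01-fold, and within the 4 sets that held both the ratio was between 0.926 and 1.07 (median 1.03, above 1 in 3 of 4). Of 33 genes 0 were 1.5-fold higher and 1 was lower, fewer than the 14.4% and 19.4% of all genes. The order of the 35 genes by level was nearly that of homeostatic microglia (Spearman's rho 0.947 across genes, which share cells, total and depth).

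Small differences of single genes kept their direction over sets in few cases. Ndufs4 was at 0.902 in DAM and 0.693 in homeostatic microglia, with 0.851 against 0.796 in set A, 1.08 against 0.995 in B, 0.653 against 0.563 in C and 1.05 against 0.686 in F. Ndufa2 (2.87 against 2.50) was also higher in each of the 4 sets, with 2 of 33 genes so (11.6% of all genes). Ndufab1 (0.822 against 1.04) and Ndufa6 were lower in each of them (18.3% of all genes were), the latter although its level over all cells was higher in DAM (2.63 against 2.49). The 1 gene past 1.5-fold, Ndufb4 (0.467 against 0.771), was lower in 3 of 4 sets and higher in set A, and Ndufb6 (0.914 against 0.650) was higher in 3 of 4 sets. Ndufb5 and Ndufv3 (both 1.21-fold) completed the 4 largest folds past the minimum and Ndufa9 (0.768) and Ndufa12 (0.816) the 4 smallest. Ndufv1, under the minimum, was at 0.503 against 0.309 (1.63-fold) and higher in each of the 4 sets.

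Proliferating myeloid cells had the highest sum of the states, 71.2 per 10000 or 1.48-fold the homeostatic level. Of 33 genes, 18 were 1.5-fold higher and 0 lower, with 33.2% and 15.2% of all genes. The largest folds were those of Ndufb11 (3.62 against 1.46), Ndufb6 (1.38 against 0.650), Ndufs4 (1.35 against 0.693) and Ndufs6 (1.70 against 0.934), and Ndufv1, under the minimum, was at 0.602 against 0.309. The smallest were those of Ndufa6 (1.75 against 2.49), Ndufb10 (1.64 against 1.86), Ndufb2 (0.918 against 0.979) and Ndufb4 (0.831 against 0.771). However, 149 of the 175 cells were in set B, whose homeostatic microglia were themselves at 57.1. Within set B the sum was 69.5, 1.22-fold. There 6 of 33 genes were 1.5-fold higher (Ndufv2, Ndufs7, Ndufa9, Ndufa12, Ndufb3 and Ndufb11) and 0 lower, against 25.2% and 11.9% of all genes. The median of the 33 within set B was 0.24 on the log2 scale, against 0.16 for all genes, so that much of the shift was shared by the whole table. The cells also had more genes above 0 (median 710, against 523). Among cells of 400 to 700 genes only, the 1.48-fold difference moved by less than 12.2%, the SD over sets of the homeostatic gate. The part of the number of genes in the difference within set B was not tested.

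Monocytes or macrophages, which enter the spinal cord from blood, were at 56.3, or 1.17-fold the homeostatic level, with 5 of 33 genes higher (23.0% of all genes) and 1 lower (18.4%). Higher were Ndufb6 (1.31 against 0.650), Ndufs4 (1.28 against 0.693), Ndufc1 (2.78 against 1.56), Ndufs6 (1.52 against 0.934) and Ndufv3 (1.60-fold), and Ndufs3 was lower (0.476 against 0.764). Here 296 of 305 cells were in set B. Within it the sums were 56.9 and 57.1 (0.997-fold), none of the 33 genes was 1.5-fold higher (15.6% of all genes), and Ndufs3 and Ndufa12 were lower (15.8%). The higher level of this state over all cells was not seen within this set. Interferon-responsive cells were at 51.3 (1.07-fold), with 5 genes higher and 5 lower of 34 (36.2% and 18.9% of all genes), and at 58.5 against 57.1 within set B. Their largest fold, that of Ndufs1 (0.941 against 0.324), rested on 4 cells above 0.

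Apoe, a lipid carrier that marks DAM, varied from none to more than 10% of the total in myeloid cells, and 4 ranges of its share were compared. These are ranges of a continuous value and not cell types. Over all myeloid cells the sum of the 35 genes was 49.6 per 10000 below 1% Apoe, 53.8 from 1 to 5%, 48.6 from 5 to 10% and 42.3 at 10% or more. Within sets the order was the same each time. In set A it went from 57.5 (1 to 5%) to 49.0 and 45.1, and in set B from 64.2 (under 1%) to 54.2 and 50.1. In set C it went from 50.4 (1 to 5%) to 46.0 and 37.2, and in set F from 53.6 (under 1%) to 49.3 and 47.5. All 8 steps to the next range were downwards, and so were all 8 when Apoe, mitochondrially encoded and ribosomal protein genes were left out of the total, and 7 of 8 without scaling. The median number of genes above 0 also changed between the lowest and highest range of a set. It went from 669 to 467 in set B and from 580.5 to 404 in set C, but from 460 to 619 in set A and from 563.5 to 585 in set F. The part of this number in the steps was not tested. Sets D (48.0) and E (46.2) had cells in the lowest range only. The shift was shared by most genes of the table: between the lowest and the highest range of a set, 63.6% to 81.8% of the complex I genes past the minimum were lower, beside 61.1% to 80.0% of all genes. From 1 to 5% Apoe, 1 of 33 genes was 1.5-fold higher than under 1% and 0 lower (15.7% and 16.6% of all genes), and from 5 to 10% the counts were 0 and 1 (16.0% and 21.2%). At 10% or more Apoe against under 1%, 0 of 33 genes were 1.5-fold higher and 7 lower, against 14.6% and 31.0% of all genes. These 2 ranges shared no set. The lowest folds past the minimum were those of Ndufa12 (0.494 against 1.11), Ndufb4 (0.395 against 0.810), Ndufs5 (0.851 against 1.49) and Ndufs3 (0.519 against 0.872), and the highest those of Ndufa6 (2.73 against 2.23), Ndufb5 (1.44 against 1.24), Ndufs7 (1.44 against 1.29) and Ndufb10 (1.94 against 1.79).

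**Figure D4:**
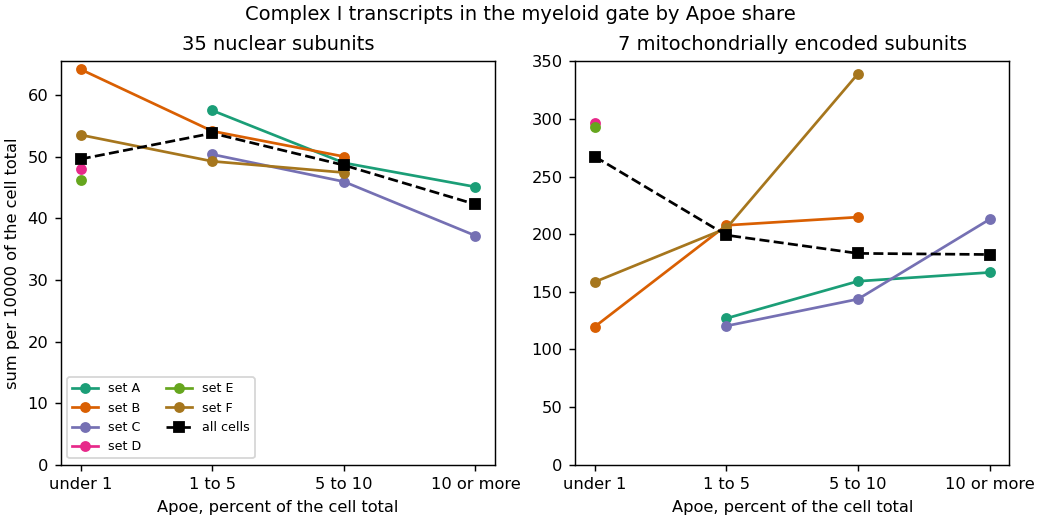
Summed level per 10000 of the cell total (y axis) of the 35 nuclear (left) and 7 mitochondrially encoded (right) complex I subunits in the myeloid gate by range of Apoe share (x axis). Coloured lines are sets with at least 20 cells in a range and the dashed line is all cells. At each higher range the nuclear sum is lower and the mitochondrially encoded sum higher within each of the 4 sets with more than 1 range.

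The 7 mitochondrially encoded subunits of the same complex had the opposite order within sets. Their sum was higher at each step of the Apoe range, for instance from 119.8 to 214.8 per 10000 in set B and from 120.4 to 212.8 in set C. In DAM it was 1.08- to 1.36-fold that of homeostatic microglia in 4 of 4 sets, although over all cells it was lower (186.4 against 250.3). Of the 2652 homeostatic microglia, 963 were in set D and 799 in set E, where this sum was 291.6 and 288.0. The nuclear sum was 19.2% of the mitochondrially encoded sum in homeostatic microglia, 60.8% in proliferating cells and 60.2% in ependymal cells. Within set B, which held most proliferating cells, it was 36.3% in homeostatic microglia and 59.5% in proliferating cells. All mitochondrially encoded genes together had a median share of the total of 8.25% in homeostatic microglia. This share was 2.93% in proliferating cells and 5.14% in ependymal cells, so a lower level was not particular to the mitochondrially encoded genes of complex I. The nuclear sum was also higher in both, at 71.2 and 90.6 against 48.1 per 10000 in homeostatic microglia. The part of the mitochondrially encoded share in the ratios was not tested.

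The other complexes gave the frame for these values. In oligodendrocytes the nuclear complex IV genes were 1.37-fold (6 of 6 sets) and complex III genes 1.13-fold (6 of 6 sets) the myeloid level, whereas complex V genes (0.955-fold, above 1 in 2 of 6 sets) and complex II genes (0.926-fold, 3 of 6) were not higher. In these cells 3 of 11 complex IV genes past the minimum were 1.5-fold higher and 1 lower, and 0 of 14 complex V genes were higher and 1 lower, beside the 25.7% and 34.4% of all genes given above, so that the complex IV count lay near the share of all genes in the higher direction. In ependymal cells complex III (1.68-fold), complex IV (1.35-fold) and complex V (1.51-fold) had smaller folds than the nuclear complex I sum, and the 18 assembly factors of complex I, at a low level, were 2.81-fold the myeloid level (10.5 per 10000), with 4 of the 5 past the minimum 1.5-fold higher. In proliferating cells all nuclear lists were between 1.41- and 1.68-fold, while the mitochondrially encoded complex I genes were 0.468-fold. Within set B the latter were 0.744-fold, and the nuclear lists lay between 1.18-fold (complex IV) and 1.53-fold (complex II). In DAM the nuclear lists lay between 1.01- and 1.14-fold.

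**Figure D5:**
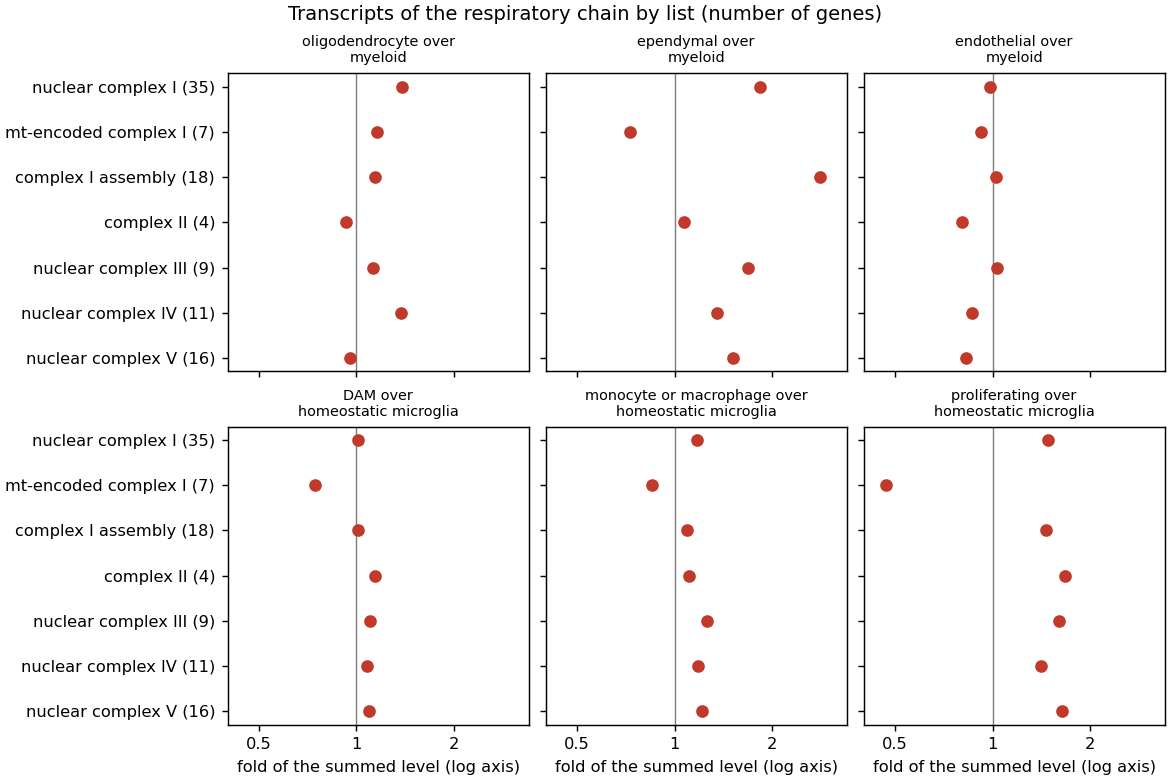
Fold of the summed level (x axis, log scale) of 7 lists of respiratory chain genes (y axis) in 6 gates over their reference. Nuclear complex I stands at 1.38 in oligodendrocytes beside 1.37 for complex IV and 0.955 for complex V, and in DAM every nuclear list is near 1. Folds are over all cells of a gate and do not separate the sets.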

How the data were processed

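Spinal cord cells were captured in 6 libraries with the 10x 3′ v2 kit, per the labels. Per the submitters' processing notes and the study's methods, Cell Ranger 7.1.0 was run against GRCm38 and counted intronic reads too, and the authors combined and filtered the cells with Seurat 4.3.0.1. They deposited 1 table of 18792 genes and 13614 cells with 1 whole number per gene and cell. The deposited values were taken as a score, not as counts: totals per cell had a narrow range (687 to 1578, median 962), and cells with few genes held many values of 2 and 3. How the values were made is not described in the sources used here. The sequencing depth is therefore unknown, and no interval, count model or floor that needs it was used for the values given. Doublets were not called here.

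Values were divided by the cell total and multiplied by 10000 (Python 3.11.15, numpy 2.4.6, scipy 1.17.1, pandas 2.3.3). A cell was assigned to the lineage with most of its 10 markers above 0 (13 lists, at least 3 markers, a lead of 2), and a myeloid cell to 1 of 5 states (at least 2 markers, a lead of 1, or at least 3 proliferation markers first). Mzb1 and Pmp2 of these lists were not in the table. Levels are given for gates of at least 40 cells, a limit chosen after seeing the gate sizes. Counts of genes past 1.5-fold are given for gates of at least 50 cells, over genes with a mean of at least 0.5 per 10000 over both gates, and values by set for at least 20 cells. The genes named are the 5 highest and 5 lowest in myeloid cells, up to 4 with the largest and smallest fold per gate, and those past 1.5-fold or in the same direction in each set. The fold steps were also run on simulated Poisson counts with known folds, as a check of the calculation only. The deposited values are not such counts, so the simulation says nothing on how reliable a fold is here. The genes, marker lists, pathway lists and rules were chosen with earlier results of these data known.

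Alternatives were no scaling, scaling without mitochondrially encoded genes, ribosomal protein genes and Apoe, the cell limits stated for the Nd6 data applied to the deposited values (12556 cells), cells with 400 to 700 genes, equal weight for sets, each set left out in turn, looser gates (2 markers and a lead of 1; states 1 and 1), stricter gates (4 and 3; states 3 and 2) and no minimum level. The Apoe steps within sets under the other scalings were added after seeing the data. The promoter windows and coordinates come from RefSeq (GRCm38.p6), which held 34 windows for 32 of the 35 genes. Ndufs1, Ndufa2 and Ndufb9 had none, and Ndufa5 and Ndufa7 had 2.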

Additional observations from a re-analysis of the deposited data

How the results depend on the processing

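No paired analysis was possible because no cell could be tied to a replicate and no test was made. Of 64 alternatives to a fold of the summed level in gates of at least 50 cells (sets left out one by one apart), 58 moved it by less than the SD over sets of the reference gate (9.46% of the mean for lineages, 12.2% for states and 15.3% for Apoe ranges). The other 6 were, without scaling, an endothelial fold of 1.09 and an ependymal fold of 2.12; with the stated cell limits, an endothelial fold of 1.14; with looser and stricter gates, oligodendrocyte folds of 1.24 and 1.54; and with equal weight for sets, an interferon fold of 1.24. The endothelial, DAM and middle Apoe folds, all near 1, changed side of 1 between settings. Of 50 alternatives to counts of 5 or more genes, 45 stayed within 1.5 times. The other 5 were 6 higher genes in oligodendrocytes with the looser gate, 13 higher in the interferon state with equal weight for sets and 3 with the looser gate, 3 higher in monocytes or macrophages without scaling, and 14 lower at 10% or more Apoe with equal weight for sets.

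With sets left out one by one, the count of lower genes at 10% or more Apoe was 5 to 14 (14 without set A), and that of higher genes in the interferon state 5 to 10 (10 without set C); the oligodendrocyte fold was 1.35 to 1.46, the ependymal 1.76 to 1.96 and the proliferating 1.45 to 1.49. Without set B the monocyte, proliferating and interferon states had too few cells to give a value, as had the interferon state and ependymal cells at 400 to 700 genes, the interferon state with the stricter gate, and the 3 gates under 50 cells under several settings. Another scaling moved the median of all genes by over 0.1 on the log2 scale in several gates, by up to 0.288 without scaling (ependymal) among gates of at least 50 cells. Counts under 5 genes moved by more than 1.5 times in 31 alternatives (sets left out apart) and stayed within that in 67. Unknown depth and values above 0 in few cells limit each single gene in the small gates.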

Other observations

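The 2151 cells that passed no lineage gate had a summed level of the 35 genes of 48.2 per 10000, from 36.5 to 57.8 over the 6 sets (median 52.8), and a median of 456 genes above 0. The level of the 1458 myeloid cells that passed no state gate lay between 37.8 and 54.1 over the 6 sets (median 48.0). Both ranges covered that of the myeloid gate to a large part.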
